A study of Mus musculus with 48 samples.

Results

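The protein part of the mouse cytosolic ribosome was followed through its mRNAs in single 2-cell embryos. The genes were taken by name: symbols beginning with Rpl or Rps and ending in a number, an optional a or x, or a P-stalk suffix, together with Rpsa, with pseudogenes left out. This gave 76 of the 55421 genes in the deposited table, of which 30 encode proteins of the small subunit, 43 proteins of the large subunit and 3 the P stalk. All 76 passed the filter on low counts. The rule misses some ribosomal protein genes by their symbols, such as Fau and Rps3a1, which are placed with the related genes.

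The series compared embryos labelled WT with embryos labelled K49A, a name that stands for an exchange of 1 amino acid in protamine 1, a packing protein of sperm DNA. Both groups were C57BL6 2-cell embryos of 26 to 28 h after fertilization, each sequenced whole, alone in its well, by Smart-seq2, a full-length method for minute RNA inputs. Which parent passed on the exchange, which embryos shared a sire or dam, and the meaning of "dot" in the titles of K49A replicates 22, 23 and 24 are not given in the labels. Transcripts of Prm1, which encodes protamine 1, had counts in 2 WT and 4 K49A embryos among those tested, too few to check the labels.

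Of 48 embryos, the 29 with at least 100000 counts were compared, 12 WT and 17 K49A. Their totals ran from 421301 to 5309505 counts in WT and from 105627 to 4947276 in K49A. A stricter set of 24 deep libraries (10 WT and 14 K49A) held at least 1000000 counts and 12000 detected genes, and results are given with and without the other 5. These were WT replicates 5 and 10 and K49A replicates 3, 14 and 22. All 10 genes on a list of 2-cell activation markers and all 16 on a list of oocyte and maternal markers had counts in tested embryos. The 2-cell list summed to 306 to 1695 CPM (counts per 1000000 after scaling of library sizes) in WT and to 90.7 to 1738 in K49A. The medians were 1094 CPM in WT and 704 CPM in K49A. In the edgeR fit described below, 2 of the 10 genes on this list had a positive fold change, K49A over WT, beside 58.4% of all tested genes. Their median log2 fold change was -0.45, and -0.46 in the deep libraries. In that fit 3 had an unadjusted p under 0.05, and 0 had an adjusted p under 0.05. WT wells filled plate rows 1 to 4 and K49A wells rows 5 to 8, so an effect of the row cannot be told apart from one of the group. Because each library pools both cells of an embryo, fewer cells and less RNA per cell cannot be told apart either.

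Ribosomal proteins assemble with ribosomal RNA into the small subunit, which reads the mRNA, and the large subunit, which joins amino acids. Cells make them in matched amounts, and their mRNAs belong to the TOP class, named for a terminal oligopyrimidine tract at the first bases of the mRNA through which growth signals control translation. At the 2-cell stage the mouse embryo replaces mRNA stored in the egg with mRNA from its own genome while it still carries ribosomes made in the egg.

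The pyrimidine tract at the start of transcription is the feature of sequence that the family is best known for, so start regions are shown for a few members. In RefSeq (GRCm38.p6), 56 of the 76 members had at least 1 annotated start, 66 starts in all. The letters CTTTC, a motif chosen after the start regions had been viewed, lay on the sense strand within 30 bases of 22 of these 66 starts (33.33%), against 7.927% of 32851 starts of all genes. The letters CCGGAAG, a core bound by ETS-family factors, lay on either strand within the 300 bases from 250 before to 50 after the start in 24 of 66 (36.36%), against 8.858% of all starts. Of the 48 members with a single start, 15 had CTTTC within the 15 bases before and 15 after it. The 6 of these with the smallest p in the comparison of groups are printed first, followed by 3 single-start members of low or negative fold change. Each runs 5′ to 3′, and capitals mark CTTTC:
Rpl13, chr8:123102335-123102364, plus strand: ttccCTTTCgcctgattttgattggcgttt
Rplp2, chr7:141447636-141447665, plus strand: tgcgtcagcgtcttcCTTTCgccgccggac
Rpl38, chr11:114668565-114668594, plus strand: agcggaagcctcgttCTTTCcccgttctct
Rpl35, chr2:39005117-39005146, minus strand: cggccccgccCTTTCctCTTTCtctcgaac
Rps26, chr10:128626492-128626521, minus strand: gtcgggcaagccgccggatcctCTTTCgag
Rpl12, chr2:32961697-32961726, plus strand: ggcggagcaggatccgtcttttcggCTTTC
Rplp0, chr5:115559452-115559481, plus strand: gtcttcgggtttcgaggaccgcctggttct
Rpl4, chr9:64173372-64173401, plus strand: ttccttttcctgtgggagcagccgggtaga
Rpsa, chr9:120127751-120127780, plus strand: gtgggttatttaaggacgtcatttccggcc
In Rplp2 and Rpl38 the letters CTTTC began at the annotated start, and Rpl35 held them a second time. The last 3 had no CTTTC here, which says only that these letters are absent from these windows. Because the first 6 were picked from members with CTTTC, the printed windows cannot show whether the letters go with p or fold change.

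The family as a whole took up a modest share of each library, and that share varied more between embryos than between group medians. Summed over the 76 members, it was 0.333% of counts in the lowest WT embryo, 0.941% at the WT median and 2.80% in the highest. K49A embryos ran from 0.159% through a median of 0.913% to 13.1%. The medians thus lay close together, while the K49A embryos extended past the WT range at both ends. Means were 1.11 ± 0.68% in WT (SD, n = 12) and 2.41 ± 3.26% in K49A (SD, n = 17), a difference smaller than the K49A spread. No p was computed for this sum, because its members were chosen with earlier results known.

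**Figure D1:**
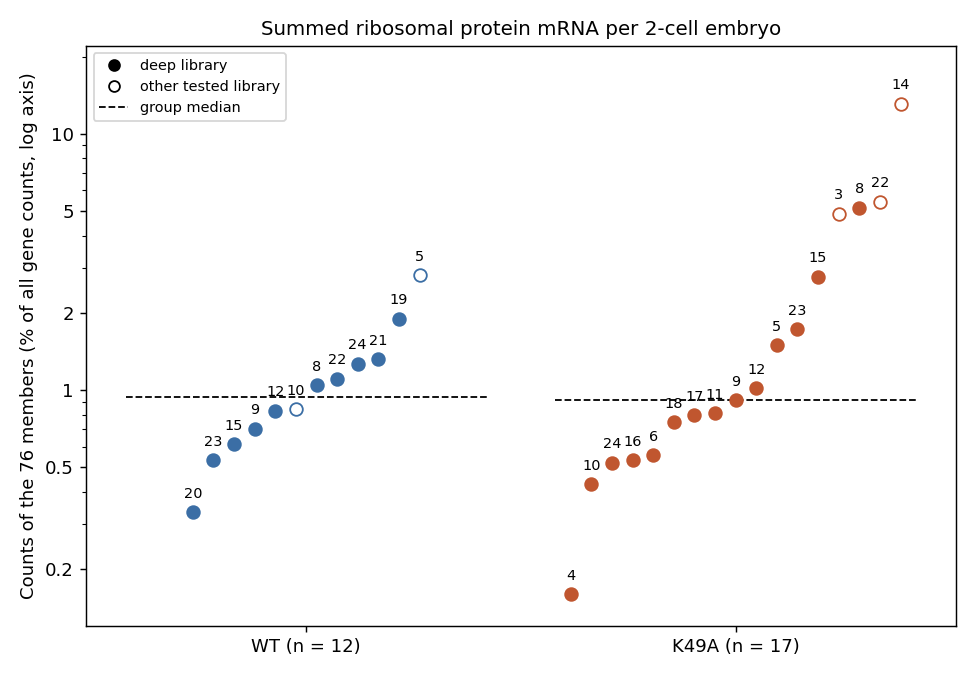
Each point is 1 tested embryo, labelled with its replicate number, and the logarithmic axis gives the counts of the 76 ribosomal protein genes as percent of all gene counts. Filled points are deep libraries, open points the other tested libraries, and dashed lines the group medians (0.941% in WT, 0.913% in K49A). In K49A, 4 points lie above the highest WT point at 2.80%, and 1 lies below the lowest WT point at 0.333%.

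In the plot of summed shares, 4 K49A embryos exceeded every WT embryo. Replicate 14 had 13.1% (Wilson 95% interval 12.98 to 13.2%), replicate 22 had 5.41% (5.28 to 5.55%), replicate 8 had 5.15% (5.11 to 5.18%) and replicate 3 had 4.86% (4.804 to 4.92%). These intervals cover counting error only, and reads without molecular identifiers are not independent molecules. Replicate 4 had 0.159% (0.155 to 0.162%), the lowest value of all tested embryos, in a library of 4585539 counts. The ratio between the highest and the lowest embryo was 82.5, against 8.41 within WT.

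Of the 4 embryos above the WT range, 3 were shallow libraries. K49A replicates 14, 22 and 3 held 283218, 105627 and 555702 counts, and only replicate 8, with 1544253, was a deep library. In WT, replicate 5 held 1064553 counts and had the highest WT share of 2.80%, while replicate 10, the shallowest WT library with 421301 counts, had 0.838%, below the WT median. In deep libraries the mean share was 0.963 ± 0.459% in WT (SD, n = 10) and 1.26 ± 1.3004% in K49A (SD, n = 14), with medians of 0.936% and 0.803%. The ratio between the highest and lowest deep K49A embryo was still 32.4. Replicates 14, 22 and 3 also had the lowest summed 2-cell markers of all tested embryos (143, 90.7 and 190 CPM), whereas replicate 8 had 601 CPM. The part of depth in their high shares was not tested.

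Within plate columns the group with the higher mean share changed. It was 9.12% in K49A and 0.688% in WT in column 2, where K49A replicates 8 and 14 sat, and 2.85% and 0.879% in column 3. It was 1.21% in K49A and 1.66% in WT in column 5, and 0.709% and 1.05% in column 6. In column 4 it was 1.63% in K49A and 0.972% in WT, but the K49A median there was 0.479%. Replicate 22 at 5.41% set that mean, and the other 3 K49A embryos of the column had 0.159%, 0.428% and 0.531%. In column 5 the WT embryos were replicate 5 at 2.80% and replicate 23 at 0.530%, beside a K49A median of 1.15%. Each column held 2 to 4 embryos of a group, and column 1 held a single tested WT embryo.

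Markers of other cell types also varied among embryos. A list of 9 blood genes summed to 13.5 to 54.5 CPM in WT and to 7.76 to 734 CPM in K49A, with replicate 22 at 734, replicate 8 at 355, replicate 14 at 218 and replicate 3 at 148. Replicates 18, 24 and 17 reached 178, 156 and 148 CPM as well, with ribosomal protein shares of 0.749%, 0.519% and 0.794%. Of this list 4 genes were tested, and all 4 had a positive fold change with an unadjusted p under 0.05, while 0 were called. The alpha globin gene Hba-a1 had counts in 12 WT and 16 K49A embryos and a log2 fold change of 2.67, and Hba-a2 had counts in 12 and 15. Cd74, the invariant chain of antigen presentation, had counts in 9 and 15 (log2 fold change 3.03), and Laptm5, a lysosomal protein of blood cells, in 9 and 16 (1.45). In the deep libraries the median of these 4 was 1.62. Hbb-bs and Hbb-bt, which encode adult beta globin, and the myeloid gene Tyrobp had 0 counts in all tested embryos. The 5 sperm genes summed to 1.12 to 38.7 CPM in WT and to 0 to 231 CPM in K49A, with 231, 148 and 135 CPM in replicates 3, 22 and 14 and 3.87 CPM in replicate 8. The 15 cumulus and granulosa genes summed to 0 to 45.6 CPM in WT and to 1.55 to 257 CPM in K49A, and replicate 8 had the lowest K49A value. Of this list 4 genes were tested, and all 4 had a positive fold change, with a median of 1.33, and 1.52 in the deep libraries. Under edgeR 2 of them had an unadjusted p under 0.05, and 0 were called. The part of these sources in the ribosomal protein levels was not tested.

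Gene by gene, K49A was set against WT in an edgeR quasi-likelihood fit of all 12456 tested genes, and a member counted as called at a Benjamini-Hochberg adjusted p under 0.05. None of the 76 members was called in either direction, beside 0.0161% of all tested genes (2 genes, both lower in K49A). The smallest adjusted p of a member was 0.213. Without adjustment, 50 members had a p under 0.05 with a positive fold change, beside 6.25% of all genes, and 1 had a p under 0.05 with a negative one, beside 1.49%. Without K49A replicate 14 the number under 0.05 was 24 in place of 51. Fitted fold changes, K49A over WT, were positive in 73 of 76 members, beside 58.4% of all genes, but in 44 under the weighted limma fit described further on. Their median on the log2 scale was 1.53, beside 0.11 for all genes.

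Group medians gave another picture from the fitted means. In 30 members the K49A median CPM was higher than the WT median and in 46 it was lower, where 51.4% of all tested genes were higher. The log2 ratio of medians had a median over members of -0.06 and ran from -1.04 to 0.84. In 0 members were the groups separated without overlap, and this held for 0 of all tested genes (0%). Without K49A replicate 14 the fitted median over members was 0.87, and leaving out any other single embryo gave at most 1.73.

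In the deep libraries 0 members were called by edgeR, beside 0.0312% of genes, and the smallest adjusted p was 0.936. Fold changes were positive in 74 of 76 members, beside 55.7% of genes, with a median of 0.60. Only 3 members had an unadjusted p under 0.05, all higher, beside 3.18% of genes higher and 1.91% lower: Rpl34, Rpl19 and Rpl13, named here after their values were seen. DESeq2 over the 29 embryos called 5 members higher (Rpl13, Rplp1, Rps20, Rpl29 and Rps28), beside 0.653% of its tested genes, and 0 lower, beside 0.104%. With no filter on low counts edgeR called 4 higher (Rps20, Rpl36, Rpl34 and Rps28), beside 2.14%, and 0 lower, beside 1.51% (3.64% in either direction). Both sets were named after their values were seen. Under voom with quality weights, a limma fit that gives aberrant libraries less weight, 44 of 76 fold changes were positive, the median was 0.08 and 0 members were called. The shares over all genes under voom are not given here, so the 44 cannot be set against them.

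**Figure D2:**
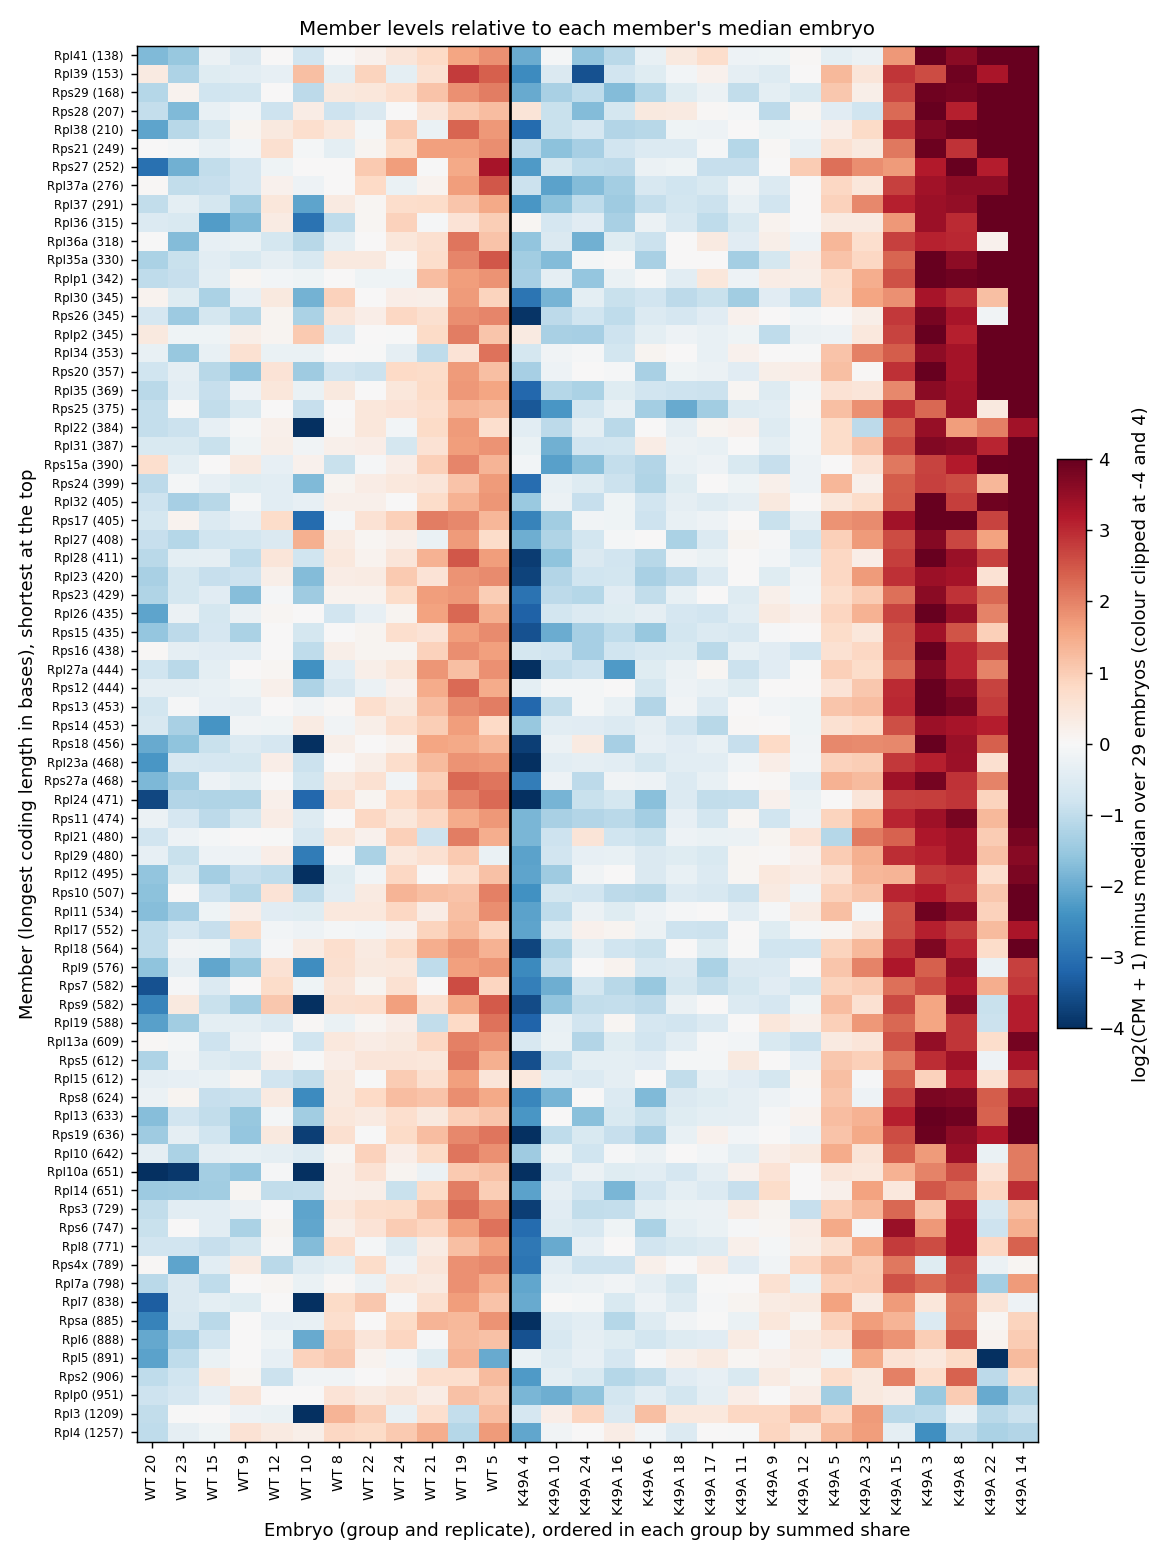
Rows are 75 of the 76 members ordered by coding length, columns the 29 tested embryos ordered within each group by summed share, and colour gives log2(CPM + 1) minus the member's median over all embryos, clipped at 4 in both directions. K49A replicates 15, 3, 8, 22 and 14 are red over most rows, and in replicates 22 and 14 the red fades towards the longest members at the bottom.

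Members moved together across embryos. The median Spearman rho over all 2850 pairs of members was 0.76 across the 29 embryos, 0.72 in WT and 0.79 in K49A, and 0.72 in the deep libraries. These values describe points that share library, depth and scaling. In the heat map of members by embryo, K49A replicate 8 exceeded the highest WT embryo in 71 members, replicate 15 in 65, replicate 14 in 63, replicate 3 in 58, replicate 22 in 32, replicate 23 in 11 and replicate 5 in 2. The other 10 K49A embryos did so in 0 members. At the low end, replicate 4 was below the lowest WT embryo in 50 members, replicate 10 in 17 and replicate 24 in 12. In WT, replicates 19 and 5 held the highest value for 37 and 36 members.

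The spread of a member was usually wider in K49A. The SD of log2(CPM + 1) was 1.09 at the median member in WT and 1.97 in K49A, and it was larger in K49A for 71 of 76 members, beside 52.2% of all tested genes. In the deep libraries it was larger in K49A for 73, beside 57.2%. The spread itself was given no test.

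Over all tested embryos Rpl3 and Rpl4 had the lowest median rho with the other members. Rpl3, a protein beside the peptidyl transferase centre, had -0.09 across all embryos, 0.03 in the deep libraries and 0.33 in WT. Rpl4, a lining of the exit tunnel for the nascent chain, had 0.00, 0.28 and 0.43. Next were Rplp0 at 0.31 and Rpl5 at 0.36 across all embryos, and in WT Rpl5 was at 0.16. Both Rpl3 and Rpl4 are among the longest members, with coding lengths of 1209 and 1257 bases. The highest median rho was that of Rps15, at 0.86.

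Among proteins of the small subunit, Rps28 had the smallest p. It lies near the exit of the mRNA channel, and its gene is at chr17:33819027-33824562 (minus strand, GRCm38, GENCODE). Its CPM ran from 11.4 through a median of 35.8 to 97.8 in WT and from 11.7 through 43.5 to 5138 in K49A. The other 12 K49A embryos lay within the WT range, and 5 lay above it: replicate 22 at 5138, replicate 14 at 1616, replicate 3 at 890, replicate 8 at 366 and replicate 15 at 204. The log2 fold change was 3.55 ± 0.86 (SE, edgeR adjusted p = 0.213), 0.97 ± 0.51 in the deep libraries, and 2.34 without replicate 22.

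Rps29, a small zinc-binding protein of the head of the small subunit, ran from 15.1 through 41.8 to 145 CPM in WT and from 7.76 through 26.0 to 3833 in K49A. Its K49A median was the lower one, yet its fitted log2 fold change was 2.97 ± 0.88 (SE, edgeR adjusted p = 0.335) and 0.65 in the deep libraries, and without replicate 14 it was 1.94. Rps20, a head protein that is ubiquitinated when ribosomes collide, ran from 7.25 through 15.7 to 78.4 CPM in WT and from 8.69 through 24.1 to 624 in K49A. It had a log2 fold change of 2.34 ± 0.68 (SE, edgeR adjusted p = 0.334), and 15 of 17 K49A embryos lay at or above the WT median. Rps18, which contacts the large subunit, had 0 counts in 1 WT embryo and otherwise reached 139 CPM in WT and 3173 in K49A. In K49A, 7 embryos exceeded its WT range, and its log2 fold change was 2.61 ± 0.79 (SE, edgeR adjusted p = 0.335), and 1.51 without replicate 14.

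Several longer small-subunit members had smaller fold changes. Rpsa, also known as the laminin receptor precursor, ran from 21.6 through 142 to 492 CPM in WT and from 2.79 through 139 to 635 in K49A, with a log2 fold change of -0.00 ± 0.45 (SE). Values for Rps3, at the mRNA entry site, were 32.2, 166 and 673 CPM in WT and 9.62, 120 and 1217 in K49A (lowest, median, highest), with a log2 fold change of 0.14 ± 0.49 (SE). For Rps2, a neighbour of Rps3 at the entry site, the log2 fold change was 0.27 ± 0.39 (SE), for Rps9, which takes part in decoding accuracy, 0.48 ± 0.63, and for Rps6, the target of S6 kinase, 0.59 ± 0.53. Rps9 was at 0.025 without K49A replicate 8 and Rps6 at 0.19 without replicate 15. All 5 overlapped between groups across most of their range, and none had an unadjusted p under 0.05. The small-subunit median was 1.73 over 30 members, 29 of them positive, and 0.56 in the deep libraries.

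In the large subunit, Rpl34, a protein of the solvent side, had the smallest p. It ran from 8.999 through 22.6 to 128 CPM in WT and from 16.3 through 29.9 to 1970 in K49A. In K49A, 5 embryos were above the WT range, led by replicate 14 at 1970 and replicate 22 at 635. Its log2 fold change was 2.73 ± 0.72 (SE, edgeR adjusted p = 0.285) and 1.32 ± 0.48 in the deep libraries, where its unadjusted p of 0.0107 was the smallest of any member, and it was 1.74 without replicate 14.

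Rpl37, a zinc-binding protein, had WT values of 4.83, 28.9 and 72.2 CPM and K49A values of 4.04, 19.9 and 1982 CPM (lowest, median, highest). Its log2 fold change was 2.78 ± 0.80 (SE, edgeR adjusted p = 0.334), although the K49A median lay below that of WT. It was 1.66 without replicate 14 and 0.99 in the deep libraries. Rpl36 was among the 4 members of lowest WT level per length, and ran from 0 through 5.45 to 14.4 CPM in WT and from 2.19 through 7.14 to 353 in K49A, with a log2 fold change of 2.66 ± 0.77, and 1.76 without replicate 14. Rpl41, the shortest of the family, ran from 64.7 through 223 to 787 CPM in WT and from 55.2 through 211 to 7216 in K49A. Its log2 fold change was 2.43 ± 0.73, with nearly equal group medians. It was 0.70 in the deep libraries, 0.38 with DESeq2 and 0.49 under voom.

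Rpl4 lay at the other end, as the only large-subunit member of negative fold change, and Rpl3 had a small positive one. Rpl4 ran from 135 through 414 to 969 CPM in WT and from 53.5 through 277 to 957 in K49A, with 0 K49A embryos above the WT range and 14 of 17 below the WT median. Its log2 fold change was -0.50 ± 0.37 (SE, edgeR adjusted p = 0.851) and -0.18 in the deep libraries. Rpl3 ran from 4.83 through 115 to 322 CPM in WT and from 57.7 through 165 to 401 in K49A. Its log2 fold change was 0.22 ± 0.39, and 0.38 in the deep libraries. In K49A replicate 14, which held the highest value of 52 members, Rpl3 was at 67.5 and Rpl4 at 131 CPM, both under their WT medians.

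Other large-subunit members have roles beyond translation or in assembly. Rpl5, which binds 5S ribosomal RNA and restrains Mdm2, ran from 6.47 through 27.9 to 83.3 CPM in WT and from 0 through 36.1 to 93.5 in K49A (log2 fold change 0.19 ± 0.39). Rpl10, added late in subunit maturation and encoded on the X chromosome, had 45.7, 103 and 491 CPM in WT and 40.7, 110 and 1196 in K49A (lowest, median, highest; log2 fold change 0.54 ± 0.46, and 0.14 without K49A replicate 8). The other X-linked members were Rpl36a at 1.84 ± 0.66, Rpl39 at 1.43 ± 0.71 and the small-subunit gene Rps4x at 0.20 ± 0.44 (log2 fold change ± SE). Without K49A replicate 14, Rpl36a was at 0.83 and Rpl39 at 0.61, and under voom Rpl39 was at -0.09. The large-subunit median was 1.43 over 43 members, 42 of them positive, and 0.60 in the deep libraries.

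Rpl12, the base of the stalk, and Rpl10a, of the mobile L1 stalk, each had 0 counts in 1 WT embryo. Log2 fold changes were 1.54 ± 0.56 for Rpl12, 0.93 ± 0.56 for Rpl10a and 0.20 ± 0.44 for Rpl7 (SE). For the small-subunit genes Rps13 and Rps16, which were among the highest in level per length, they were 1.82 ± 0.66 and 1.63 ± 0.62, with Rps13 at 1.18 without K49A replicate 14. None of these 5 was called.

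The P stalk, which recruits and activates elongation factors, split into its parts. Rplp0 anchors the stalk to the large subunit, and dimers of Rplp1 and Rplp2 hang from it. The 3 genes also differ in coding length, with 951 bases for Rplp0, 342 for Rplp1 and 345 for Rplp2. Rplp0 (chr5:115559467-115563727, plus strand) ran from 798 through 1766 to 3203 CPM in WT and from 346 through 856 to 2887 in K49A. Among K49A embryos 7 lay below the WT range, 0 lay above it, and 15 of 17 were below the WT median. Its log2 fold change was -0.72 ± 0.33 (SE, unadjusted p = 0.0362, edgeR adjusted p = 0.578), the most negative of the family, and -0.49 ± 0.34 in the deep libraries.

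Rplp1 (chr9:61913284-61914542, minus strand) ran from 38.3 through 71.4 to 275 CPM in WT and from 26.2 through 96.6 to 7014 in K49A. Rplp2 (chr7:141447370-141451585, plus strand) ran from 108 through 179 to 656 CPM in WT and from 62.0 through 139 to 8726 in K49A. For each, 5 K49A embryos exceeded the WT range, with Rplp1 highest in replicate 14 and Rplp2 highest in replicate 22. The log2 fold changes were 2.92 ± 0.78 for Rplp1 (SE, edgeR adjusted p = 0.293) and 2.40 ± 0.73 for Rplp2 (adjusted p = 0.335). In the deep libraries they were 1.03 ± 0.57 and 0.36 ± 0.52.

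**Figure D3:**
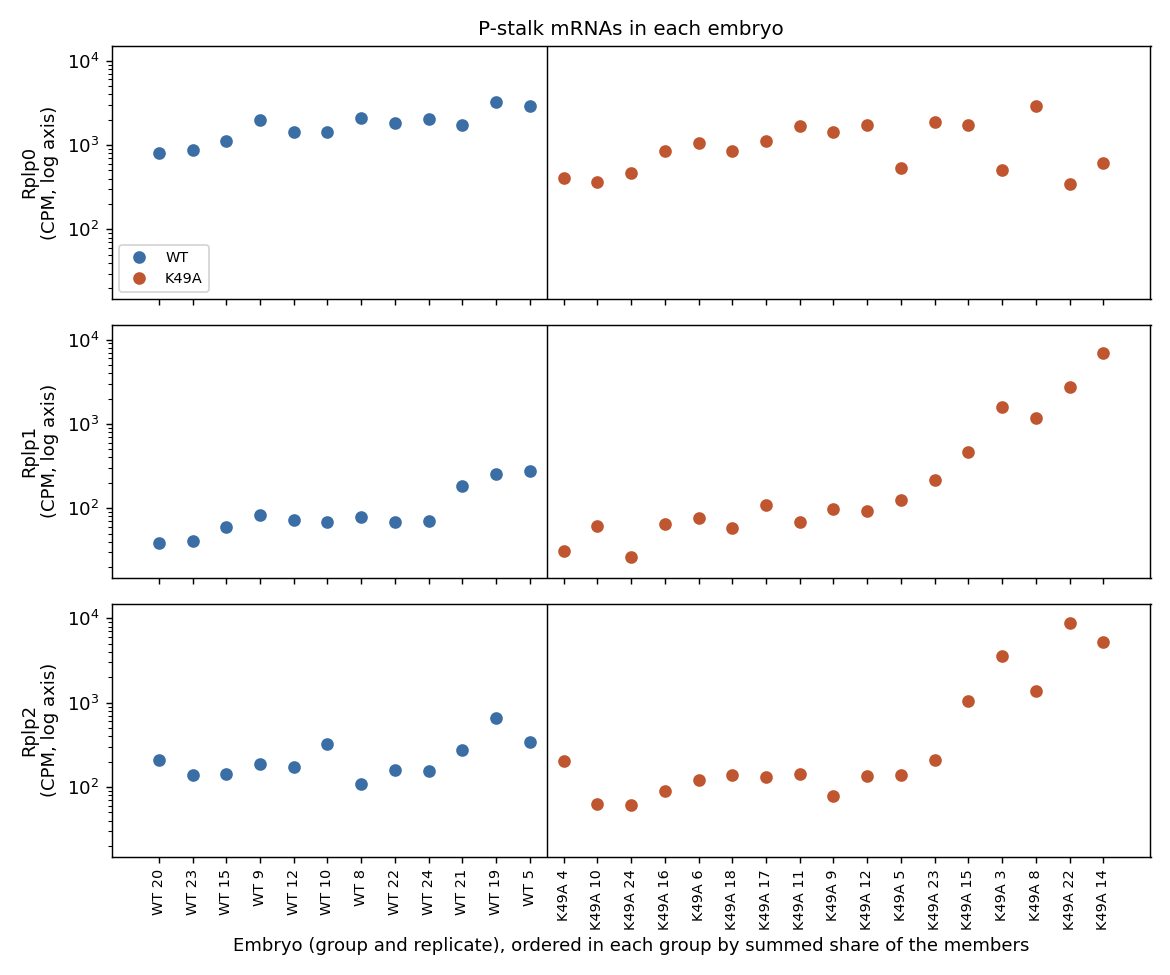
The 3 panels give CPM on a logarithmic axis for Rplp0, Rplp1 and Rplp2 in each tested embryo, ordered within each group by the summed share of all members. Rplp1 and Rplp2 climb to 7014 and 8726 CPM in the K49A embryos on the right, while Rplp0 is at 346 CPM in replicate 22 and 620 CPM in replicate 14.

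The plot of the stalk genes shows that Rplp0 and its partners came apart within single embryos. In K49A replicate 14 Rplp0 was at 620 CPM beside 7014 for Rplp1, in replicate 22 at 346 beside 2705, and in replicate 3 at 506 beside 1578. In replicate 8, Rplp0 was at 2887 CPM, its highest K49A value, beside 1190 for Rplp1. Long and short members came apart across the whole family in replicate 14, where rho between coding length and deviation from the median was -0.82. The split is therefore not particular to the stalk, and the part of length in it was not tested. As a share of all member counts, Rplp0 made up 12.1 to 26.4% in WT (median 17.4%) and 0.420 to 21.5% in K49A (median 11.5%). The share was 0.420% in replicate 14 (Wilson 95% interval 0.3595 to 0.492%), 0.734% in replicate 22 (0.544 to 0.991%) and 0.770% in replicate 3 (0.673 to 0.882%), the 3 shallow K49A libraries. In deep libraries it was 4.21% in replicate 5 (4.07 to 4.36%), 4.58% in replicate 15 (4.41 to 4.75%) and 4.69% in replicate 8 (4.54 to 4.84%). Deep replicates 10, 24 and 23 had 7.85%, 9.05% and 11.5%. All of these lay below every tested WT embryo.

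Coding length ordered the fold changes. Across the 76 members, Spearman's rho between coding length and log2 fold change was -0.82, beside -0.08 across 11177 other tested genes with a length. These are correlations across genes, which share the same 29 libraries and are not independent replicates. The 24 members of up to 400 coding bases had a median log2 fold change of 2.21, the 29 of 401 to 600 bases 1.63 and the 23 longer ones 0.59. Other genes in the same length classes had medians of 0.61 (n = 525), 0.19 (n = 931) and 0.09 (n = 9721). In the deep libraries rho was -0.32 for members and -0.12 for other genes, and the 3 member medians were 0.72, 0.67 and 0.45. With the length of the longest transcript instead of the coding length, rho for members was -0.40 over all tested embryos.

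**Figure D4:**
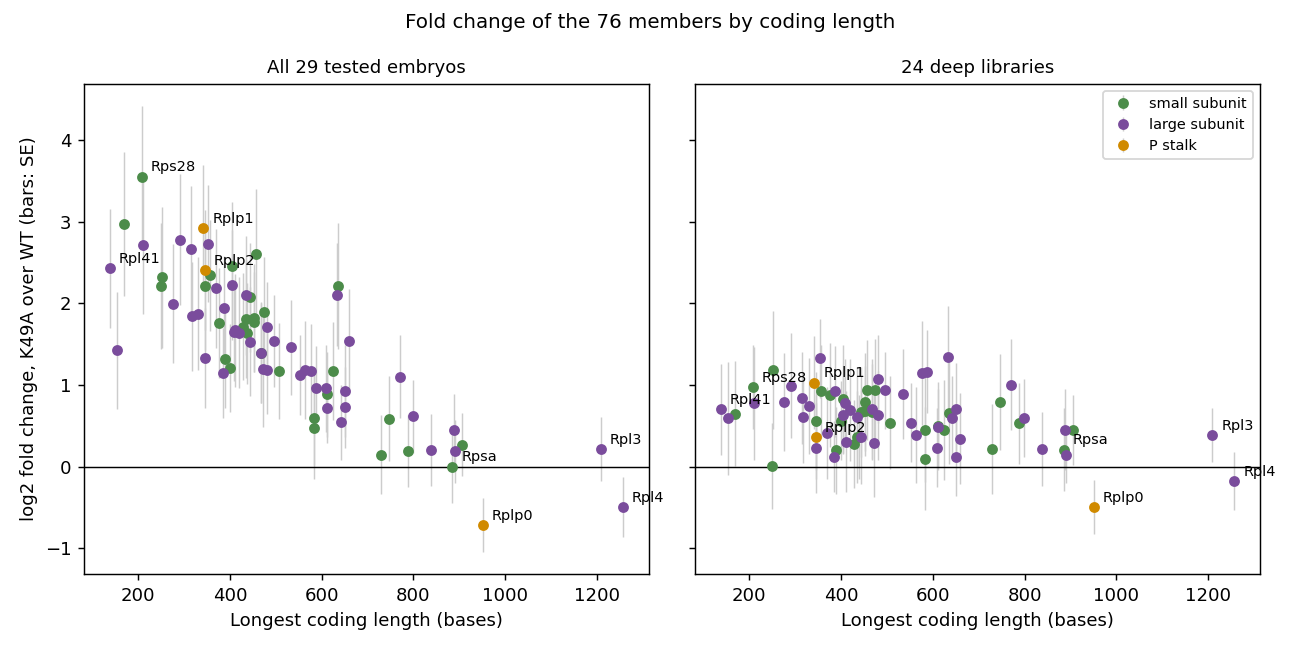
Each point is 1 member, with its longest coding length on the x axis and its log2 fold change (K49A over WT, bars: SE) on the y axis, in all 29 tested embryos on the left and in the 24 deep libraries on the right. On the left the points fall from Rps28 at 3.55 to Rplp0 at -0.72 as length grows, and on the right they lie closer to a level band with a median of 0.60.

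The slope in the plot of fold change against length was uneven across embryos. The rho between coding length and a member's deviation from its median was -0.82 in K49A replicate 14, -0.78 in replicate 22, -0.63 in replicate 3 and -0.47 in replicate 8. In the 12 WT embryos it ran from -0.29 to 0.42, with -0.16 in replicate 10 and -0.19 in replicate 5. K49A replicates 14, 22 and 3 were the shallow libraries, and whether depth sets this slope was not tested.

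Levels of different members can be compared only per length, for which the deposited TPM, which scale each library to a common sum after division by length, were used. At the WT median, members spanned 35.2 to 1887 TPM, a ratio of 53.6, around a median of 204. Among the highest were Rplp0 at 1887 TPM (642 to 2844 over 12 WT embryos), Rpl41 at 1226 (253 to 3391), Rplp2 at 641 (361 to 2045), Rps16 at 541 (269 to 1306) and Rps13 at 539 (205 to 1631). The order ended with Rpl12 at 53.2 TPM (0 to 155), Rpl36 at 49.3 (0 to 174), Rpl5 at 35.4 (7.32 to 111) and Rps20 at 35.2 (11.8 to 139). Ranges of neighbours in this order overlapped, at the top as well as at the bottom. By subunit the median was 272 TPM for the small subunit, 163 for the large subunit and 641 for the stalk. In K49A, the median of Rplp0 was 1041 TPM, below that of Rpl41 at 1307.

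**Figure D5:**
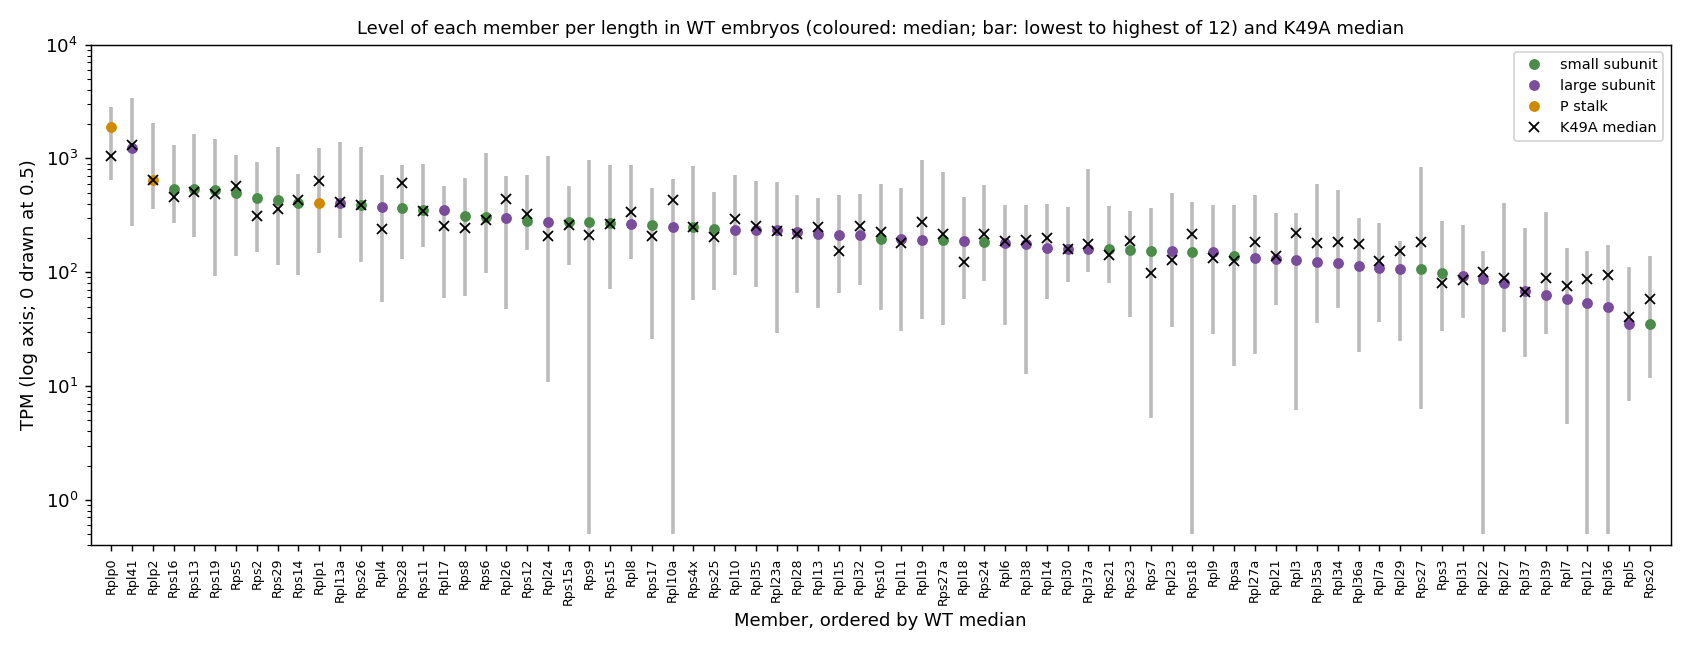
Coloured points give the WT median TPM of 75 of the 76 members on a logarithmic axis, grey bars the lowest to highest of 12 WT embryos (0 drawn at 0.5), and crosses the K49A median. The medians fall from 1887 TPM for Rplp0 to 35.2 TPM for Rps20, and the K49A cross of Rplp0 lies at 1041 TPM.

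As the plot of levels shows, members also differed in how steady they were among WT embryos. Rplp0, Rps2 and Rplp2 had the narrowest WT spread, with SDs of log2(CPM + 1) of 0.62, 0.68 and 0.72. Rpl10a, Rps9 and Rps18 had the widest, at 2.65, 2.44 and 1.96, and each of these 3 had 0 counts in 1 WT embryo. WT replicate 10, with 421301 counts and 6303 detected genes, had counts for 70 of the 76 members, the fewest of any tested embryo.

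Related genes outside the rule were described in the same way, and 0 genes of these lists were called by edgeR. Fau, which encodes a ribosomal protein fused to a ubiquitin-like protein, had a log2 fold change of 2.27 ± 0.75, and Rack1, a longer gene for a partner of the small subunit, one of 0.33 ± 0.39 (SE). In the deep libraries these were 0.85 and 0.63. A list of 10 genes of like name outside the rule held paralogues and also Rps3a1, a small-subunit gene whose symbol the rule misses. Its 9 tested genes had a median of 0.44, 6 of them positive. The smallest p values belonged to Rpl36al at 2.12, Rps27l at 1.35 and Rpl39l at 1.45. Ribosomal protein pseudogenes passed the count filter in 16 of 309 cases and had a median of 0.74. Among them Rpl19-ps3 had 1.55, Rpl17-ps3 1.61 and Rpsa-ps10 -1.59. Reads of such copies and of their parent genes cannot be fully separated, so values of members with close copies are uncertain. With genes of like name and pseudogenes added, the summed share was 0.394 to 3.01% in WT and 0.204 to 13.9% in K49A.

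Proteins of the mitochondrial ribosome, which are encoded in the nucleus but translated into a separate machine, had a median log2 fold change of 0.39 over 75 tested genes, 56 of them positive. Mrpl54 had 2.61, Mrps21 2.08 and Mrpl57 1.96. Their median in the deep libraries was 0.28. The difference from the cytosolic family was not tested.

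Other mRNAs of the TOP class had fold changes around 0. Of 18 such genes, which include elongation and initiation factors beside genes of other functions, 7 had a positive fold change, and the median was -0.15. Hnrnpa1 had -0.58 ± 0.37, Nap1l1 -0.46 ± 0.24 and Eef1b2, of shorter coding length than both, 0.72 ± 0.40. For 14 genes that control TOP mRNAs and translation, of a median coding length of 1866 bases, 8 were positive and the median was 0.04. Eif4ebp1, an inhibitor of cap-dependent initiation under mTOR control, had 1.00 ± 0.50, Rheb, an activator of mTOR, -0.50 ± 0.36 and Rps6kb1, the S6 kinase, 0.28 ± 0.32.

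Nuclear genes named as parts of the respiratory chain or ATP synthase gave a median log2 fold change close to that of the family. They were taken by the first letters of the symbol and not by length, so assembly factors and longer subunits are included. Their median coding length was 402 bases. Of 72 tested, 65 had a positive fold change, with a median of 1.58, and 0.38 in the deep libraries. Uqcr11 had 3.97 ± 0.91, Cox6a1 2.63 ± 0.65 and Ndufa11 2.40 ± 0.62. Their summed level was 2637 to 11772 CPM in WT (median 4277) and 3045 to 56229 in K49A (median 4331). K49A replicate 14 had 56229 CPM, replicate 3 had 49601, replicate 22 had 44156 and replicate 8 had 20417, the same 4 embryos that led the ribosomal protein sum.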

How the data were processed

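Single embryos were read by Smart-seq2, per the labels. The submitters' processing notes name RSEM 1.3.3, STAR 2.7.8a, FastQC 0.11.8 and cutadapt 2.3, without roles, and the builds mm10 and GRCm38. The annotation release and strand setting are not given in the sources used here. The authors deposited expected counts per gene and TPM (per length, scaled to a common sum). Well positions were also deposited by the authors. The expected counts were whole numbers already, and rounding changed none. The 5 transgene entries with 0 counts were left out. If RSEM made the counts, it divided reads among near-identical copies, so members with pseudogenes are uncertain.

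Embryos with at least 100000 counts were tested. filterByExpr kept 12456 genes, TMM scaled the libraries, and edgeR 4.0.16 (R 4.3.3) gave a robust quasi-likelihood test, with Benjamini-Hochberg adjustment over all genes and a threshold of 0.05. SE is the absolute log2 fold change over the root of its F statistic. Levels in CPM are per 1000000 counts of the TMM-scaled library. DESeq2 1.42.0 and limma 3.58.1 were alternatives, on log2(value + 1) for TPM. The fit was tested on simulated data.

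Each embryo is 1 replicate. P-values measure the spread between embryos, and shared parents among them are not given. The members and lists were chosen with earlier results of these data known. Members named singly had the 6 smallest or 4 largest p, the 6 highest or 4 lowest WT TPM, the 4 largest or 4 smallest fold changes, the 3 narrowest or 3 widest WT spreads, or were stalk genes, Rpsa, Rps6 or X-linked. From other lists the 3 with the smallest p were named. Of these, 1 member and 1 gene of another list are not reported here. Lengths and gene positions come from GENCODE M21 on GRCm38, start regions from RefSeq on GRCm38.p6. Alternatives were other scalings, filters, depth minimums, plate column, replicate numbers and leaving out each embryo.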

Additional observations from a re-analysis of the deposited data

How the results depend on the processing

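No member was called in 9 of 11 other settings or without any 1 of the 29 embryos. The exceptions were no filter on low counts (4 higher) and DESeq2 (5 higher). Fold changes were positive in 67 to 74 members except under voom (44), and in 70 to 74 with 1 embryo left out. For positive fold changes and unadjusted p, shares over all genes are given above only for the main fit and the deep libraries. Members with an unadjusted p under 0.05 numbered 51 in all, 11 at a minimum of 500000 counts, 3 in deep libraries, 14 with plate column as a factor, 2 under voom, 6 on log2(TPM + 1), and 24 (without K49A replicate 14) to 57 with 1 embryo left out. The median log2 fold change fell to 0.60 in deep libraries, 0.77 at 500000 counts, 0.80 with plate column, 0.32 on log2(TPM + 1) and 0.077 under voom, and ran from 0.87 (without K49A replicate 14) to 1.73 with 1 embryo left out. The ratio of group medians, chosen after seeing the data, gave -0.058. The correlation with coding length was -0.32 in deep libraries and -0.40 with transcript length. The K49A minus WT difference in mean summed share was 1.305 points, 0.294 in deep libraries and 0.636 (without K49A replicate 14) to 1.46 with 1 embryo left out. Between medians, also chosen after seeing the data, it was -0.0282, and -0.131 to 0.0746 with 1 embryo left out.

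Of 28 named members, 16 kept their direction in all 11 settings. Under voom the log2 fold changes were Rpl37 -0.23, Rpsa 0.072, Rps3 -0.32, Rplp2 -0.095, Rps16 -0.25, Rps13 -0.039, Rps29 -0.38, Rps2 -0.071, Rps9 -0.41, Rpl39 -0.093 and Rps6 -0.13. On log2(TPM + 1) they were Rps3 -0.19, Rps4x -0.081, Rps2 -0.21 and Rps6 -0.054. Rps9 was -0.25 with plate column. Rpsa was 0.063 with DESeq2 or its size factors and 0.21 in deep libraries. With 1 embryo left out Rpsa ran from -0.22 to 0.21, Rps3 from -0.25 to 0.42, Rps4x from -0.12 to 0.45 and Rps2 from -0.0066 to 0.42. The causes were not tested.

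Replicate numbers occur in both groups, and same-numbered embryos sat in the same plate column. Their deviations from the group means had correlations of -0.264 to 0.196. The labels name no shared animal, and whether such embryos shared more than the column was not tested. With the replicate block, 8 members had an unadjusted p under 0.05, 74 were positive and the median was 0.76. Rpsa was 0.52 with the block and 0.51 in the same embryos without it, where the median was 1.23.

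Depth limits the rarer members: the shallowest tested library held 105627 counts, and Rpl5 had 0 counts there.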

Other observations

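The 19 embryos below 100000 counts entered no comparison. Their totals ran from 58 to 39135 counts. Ribosomal protein genes made up 0.330% to 8.57% of counts in the 12 labelled WT (median 2.71%) and 1.59% to 10.2% in the 7 labelled K49A (median 5.11%). These 7 libraries held only 68 to 732 counts. Their median was that of replicate 13, with 9 of 176 counts (Wilson 95% interval 2.71 to 9.43%). Such counts are too few to set the 2 medians against each other. The deepest of the 19, WT replicate 3 with 39135 counts, had a share of 7.46% (Wilson 95% interval 7.21 to 7.73%, counting error only) and counts for 75 of the 76 members. Rplp0 made up 1.34% of its member counts (0.978 to 1.82%), below the 12.1 to 26.4% of the 12 tested WT embryos.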
